A study of Homo sapiens with 4 samples.

Results

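Genes of the NRF2 pathway, of glutathione metabolism and of peroxide defence were followed in MV4-11, a drug-sensitive cell line from human acute myeloid leukaemia, and in MV4-11R, a resistant line grown out of it over 3 months in rising doses of the tyrosine kinase inhibitor PKC412 (midostaurin). Membership was set by gene name. The list held 36 genes, of which 35 were measured among 18417 genes in all; PRDX5 was not analysed here. Each line was measured on 2 arrays, called parental (MV4-11) and resistant (MV4-11R) replicates 1 and 2. The labels also state a high EZH2 level, a histone methyltransferase, for the parental line and a low one for the resistant line. Both lines come from the same patient-derived line, which carries an MLL fusion and a FLT3 internal tandem duplication. The labels do not say whether MV4-11R is a clone or whether PKC412 was present at harvest.

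Cells remove hydrogen peroxide and reactive electrophiles through linked systems. Glutathione, made from glutamate, cysteine and glycine, is used by glutathione peroxidases and transferases, while thioredoxin supplies electrons to the peroxiredoxins, and both systems draw on NADPH. The transcription factor NRF2, encoded by NFE2L2, is held at low protein level by KEAP1 and, when released, raises many of these genes by binding antioxidant response elements. NRF2 is regulated mainly as a protein, so its mRNA is not a measure of its activity. In myeloid leukaemia these genes are often studied because kinase inhibitors and cytotoxic drugs raise reactive oxygen species.

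Signals are log2 values after RMA, the background correction, quantile normalization and probe set summary that the authors applied, and differences are MV4-11R minus MV4-11 on that scale. Array medians ran from 6.75 to 6.78. Background was judged from 341 olfactory receptor genes, which blood cells mostly lack and whose 95th percentile was 6.26. Of 7 myeloid markers, 0 had both line means at or below that guide, and their summed signal (log2 of the sum) ran from 13.43 to 13.64 in MV4-11 and from 13.09 to 13.14 in MV4-11R. Of these, LYZ and CSF1R fell and 5 did not pass, among which CD14 (difference 0.77) and MPO (0.47) read higher on both MV4-11R arrays than on either MV4-11 array, and SPI1 (-0.04) and CEBPA (0.04) overlapped between the lines. All 4 erythroid markers (HBB, ALAS2, EPB42 and SLC4A1) were at or below the guide in both lines, with summed signals of 7.91 to 7.95 and 7.84 to 8.05, and so were the 4 T-cell genes CD3D, CD3E, CD3G and CD2. The fifth gene of the T and NK list, NKG7, read 10.38 in MV4-11 and 11.33 in MV4-11R, and the list's summed signal went from between 10.51 and 10.59 to between 11.38 and 11.45. The 4 B-cell markers summed to 9.13 to 9.28 in MV4-11 and 9.05 to 9.14 in MV4-11R, with MS4A1 at or below the guide in both; within that sum CD79B fell (-1.09) and PAX5 rose (0.80). The 6 epithelial and fibroblast markers summed to 9.54 to 9.61 and 9.43 to 9.53, with EPCAM and CDH1 at or below it. The part of these markers in the results was not tested. In bulk RNA, fewer expressing cells and less RNA per cell cannot be told apart. EZH2 read 9.75 and 9.74 in MV4-11 and 9.90 and 9.29 in MV4-11R (difference -0.14, adjusted p = 0.734). The MV4-11R arrays lay on either side of the MV4-11 ones, so EZH2 mRNA did not separate the lines on these arrays. EZH2 protein was not measured here.

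Most of the redox genes differed little between the lines, and the few that passed the test went in different directions. By limma's test, with Benjamini-Hochberg adjustment over all 18417 genes and a threshold of 0.05, 3 members rose (GPX7, MGST1 and PRDX2), 1 fell (GCLC) and 31 did not pass. That is 11.4% of the members, beside 15.1% of all genes (7.92% higher and 7.13% lower). Of the members, 31 had a mean signal above the median of all genes, and 3 of those 31 passed, beside 22.2% of all genes above that median. The median difference over the 35 members was 0.05, against 0.01 over all genes, and the median size of a difference was 0.16 against 0.17. In 22 members (62.9%) the arrays of the lines did not overlap, beside 55.6% of all genes. With each array centred on its median, or after a further quantile normalization, 3 members rose and 2 fell, GPX1 being the other fall.

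**Figure D1:**
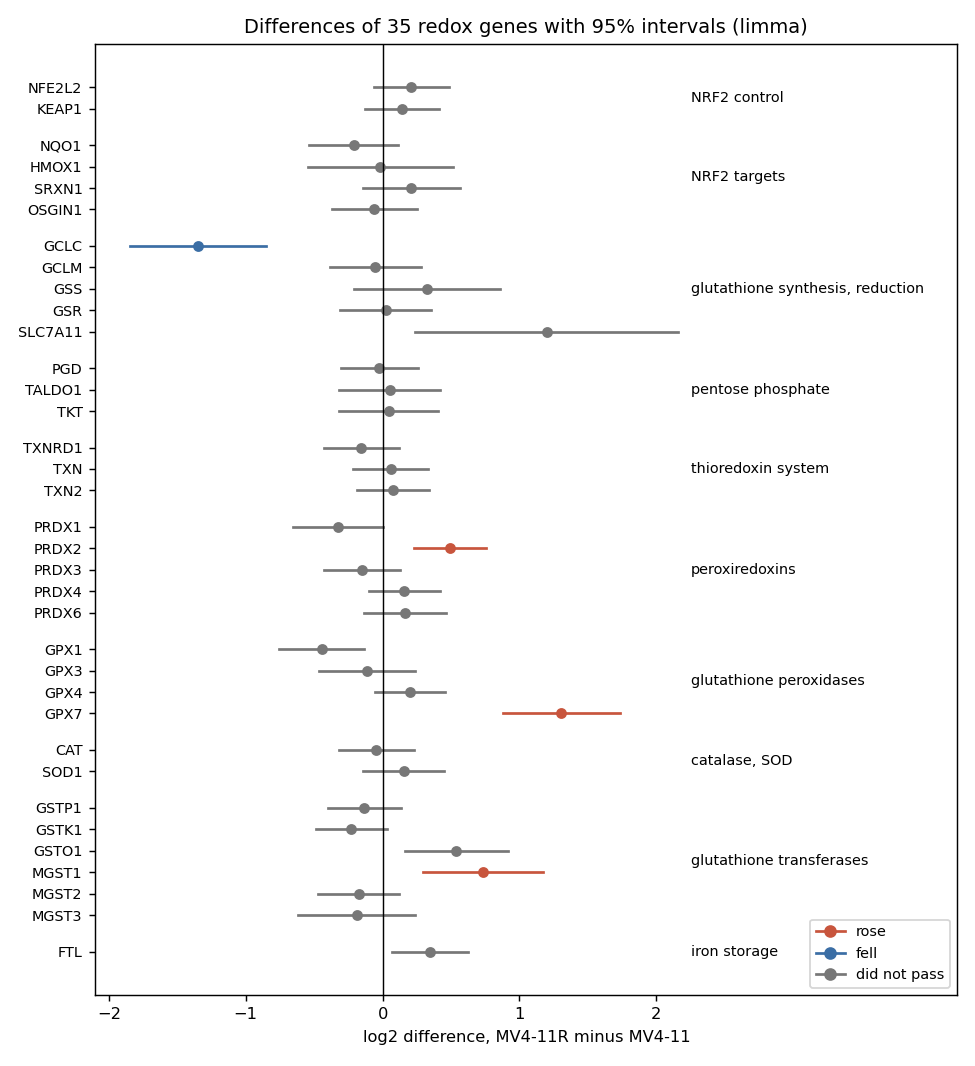
Log2 difference (MV4-11R minus MV4-11, x axis) of each of the 35 measured genes, grouped by role, with limma's 95% interval (n = 2 arrays per line); colours mark genes that rose, fell or did not pass. GCLC stands alone on the left at -1.35, GPX7 and SLC7A11 lie farthest to the right, and 27 of the 35 intervals include 0. By limma, 8 of the 35 members and 5270 of all 18417 genes had an unadjusted p under 0.05.

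GCLC, the catalytic subunit of glutamate-cysteine ligase and the rate-limiting enzyme of glutathione synthesis (Entrez gene 2729, chromosome 6), had the lowest difference of all the members. Its signal was 8.28 and 8.22 on the MV4-11 arrays and 7.20 and 6.59 on the MV4-11R arrays. Both resistant arrays thus lay below both parental arrays, and they differed more from each other than the parental arrays did. The means were 8.25 ± 0.042 (SD, n = 2) and 6.90 ± 0.43 (SD, n = 2), a 2.55-fold fall (log2 difference -1.35, SE 0.20, adjusted p = 0.0112). GCLC passed under all 12 alternative settings, with differences from -1.65 to -1.04 and adjusted p up to 0.0469. The median difference of its 30 neighbours in gene order on chromosome 6 was -0.29, and with that shift taken off the difference was -1.05 (adjusted p = 0.0236).

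GCLM, the modifier subunit that binds GCLC and makes it more efficient, did not pass (difference -0.05, adjusted p = 0.869). It read 6.94 and 6.91 in MV4-11 and 6.72 and 7.02 in MV4-11R. The parental values lay between the resistant ones, and the 95% interval of the difference (-0.38 to 0.28) was above the whole interval of GCLC (-1.85 to -0.85). That the 2 subunits differ in their response was not tested as a contrast.

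Promoter sequences were looked up because NRF2 targets share a DNA element. The core of the antioxidant response element, TGACNNNGC, was searched on both strands of the RefSeq promoter windows of build GRCh38.p14, each from 250 bases before to 50 bases after a gene's start. Windows were found for 26 of the 35 members, and 5 of them (19.2%) held the core, beside 14.6% of the windows of 14237 tested genes. The 250 bases before the start of GCLC, GPX7, MGST1 and PRDX2, the 4 members that passed the test, hold no such core, which says only that these letters are not in these windows. The GCLC and GPX7 stretches, those of the 2 largest changes that passed, are printed 5′ to 3′ on the gene's strand, with 60.8% and 68.8% G or C against a median of 62.8% over tested genes:
GCLC (chr6:53545102-53545351, minus strand): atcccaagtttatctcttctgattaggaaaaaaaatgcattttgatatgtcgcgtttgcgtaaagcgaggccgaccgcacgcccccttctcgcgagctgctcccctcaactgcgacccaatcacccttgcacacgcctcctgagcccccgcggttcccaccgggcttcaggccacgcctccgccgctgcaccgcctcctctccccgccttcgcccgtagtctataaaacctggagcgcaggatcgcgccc
GPX7 (chr1:52602121-52602370, plus strand): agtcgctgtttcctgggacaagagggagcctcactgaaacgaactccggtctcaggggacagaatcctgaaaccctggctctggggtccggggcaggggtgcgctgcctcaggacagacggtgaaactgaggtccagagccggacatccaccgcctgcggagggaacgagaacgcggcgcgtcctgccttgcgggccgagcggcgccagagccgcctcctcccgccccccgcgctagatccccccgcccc

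The 5 members with a core were GCLM, TXNRD1, PGD, GSTP1 and GSTO1, and none of these 5 passed the test, where 15.1% of all genes did. Their cores are shown in capitals with up to 15 bases on either side, on the gene's strand, and a core that begins with GC is the element on the opposite strand. The match starts 34 bases before the start of GCLM, 99 before TXNRD1, 201 before PGD, 66 before GSTP1 and 226 before GSTO1. TXNRD1 has another match that reaches its start, and GSTO1 has another 161 bases before its start. Among other genes of these pathways, described below, 16 of 89 windows (18%) held the core, beside 14.6% for tested genes. Some of those genes passed the test, such as ME1, which rose, and GSTA4, which fell.
GCLM (chr1:93909441-93909479, minus strand): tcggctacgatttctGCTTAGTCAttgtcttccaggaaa
TXNRD1 (chr12:104215665-104215703, plus strand): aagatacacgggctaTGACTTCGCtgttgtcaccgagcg
PGD (chr1:10398848-10398886, plus strand): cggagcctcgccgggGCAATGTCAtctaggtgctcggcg
GSTP1 (chr11:67583731-67583769, plus strand): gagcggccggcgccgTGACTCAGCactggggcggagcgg
GSTO1 (chr10:104254651-104254689, plus strand): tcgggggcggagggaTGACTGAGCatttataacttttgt

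The regulators of the pathway showed small differences. NFE2L2 read 10.18 and 10.29 in MV4-11 and 10.41 and 10.49 in MV4-11R (difference 0.21, 95% interval -0.06 to 0.48). KEAP1, the adaptor that directs NRF2 to degradation, read 9.47 and 9.55 in MV4-11 and 9.61 and 9.70 in MV4-11R (difference 0.14, 95% interval -0.13 to 0.41). For both genes the resistant arrays lay above the parental ones, without passing the test (adjusted p = 0.292 and 0.490). With the median shift of their neighbours taken off (0.23 on chromosome 2 and 0.31 on chromosome 19) the differences were -0.02 and -0.17, so their direction depends on that step.

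Of 4 members grouped here as readouts of NRF2, 0 rose and 0 fell, where 15.1% of all genes passed. These 4 do not stand for all genes that NRF2 can raise, and NRF2 activity was not measured. Of 106 other measured genes of these pathways, chosen with earlier results of these data known, 16 rose and 15 fell. That is 29.2% passing, beside 15.1% of all genes and 22.2% of genes above the median level. Among them ME1, whose window held the core, AKR1C1 and AKR1C2 rose, and GSTA4, whose window also held it, fell. They are described further below and were not counted as readouts here. NQO1, a quinone reductase, read 9.02 and 8.76 in MV4-11 and 8.62 and 8.74 in MV4-11R, with a difference of -0.21 (95% interval -0.54 to 0.11, adjusted p = 0.376). The resistant arrays lay just below the parental ones. HMOX1, which breaks down haem, read 7.31 and 7.53 in MV4-11, inside the range of 7.71 and 7.09 in MV4-11R. SRXN1, which restores over-oxidised peroxiredoxins, had a difference of 0.21 (95% interval -0.14 to 0.57), and its sign turned with the neighbours' shift taken off. The oxidative stress growth inhibitor OSGIN1 had one of -0.06 (95% interval -0.37 to 0.25). The upper ends of these intervals lay between 0.11 for NQO1 and 0.57 for SRXN1.

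SLC7A11, the cystine transporter that feeds glutathione synthesis, had a large but variable difference. It read 10.45 and 9.33 in MV4-11 and 11.44 and 10.74 in MV4-11R. The resistant arrays were above the parental ones, but the gap between the arrays of a line was 1.12 in MV4-11 and 0.70 in MV4-11R, the widest of any member in each line. The difference of 1.20 (SE 0.39, 95% interval 0.24 to 2.16) did not pass (adjusted p = 0.102). Without parental replicate 1 it was 1.76 and passed (adjusted p = 0.0159), and without parental replicate 2 it was 0.64 (adjusted p = 0.234). SLC3A2, the heavy chain that pairs with SLC7A11 in the membrane, was chosen after its values were seen. It read 10.94 and 10.66 in MV4-11 and 11.68 and 11.13 in MV4-11R (difference 0.61, adjusted p = 0.109), and passed without resistant replicate 2 (adjusted p = 0.0256). In both genes replicate 1 was the higher array of each line.

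The later steps of glutathione synthesis and recycling did not pass. Glutathione synthetase GSS read 9.68 and 9.82 in MV4-11 and 10.40 and 9.75 in MV4-11R, so the lines overlapped (difference 0.33, adjusted p = 0.409), and without resistant replicate 1 the difference was 2.1e-04. Without resistant replicate 2 GSS passed at 0.65 (adjusted p = 0.0396). Glutathione reductase GSR, which regenerates glutathione with NADPH, read 11.28 and 11.06 in MV4-11 and 11.09 and 11.30 in MV4-11R (95% interval -0.31 to 0.35).

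The 3 pentose phosphate genes, which supply NADPH and its sugar intermediates, had differences close to 0. PGD had a difference of -0.02, TALDO1 of 0.05 and TKT of 0.05, and the arrays of the lines overlapped for each. Their 95% intervals lay between -0.32 and 0.42. Each difference was smaller than the SD of the MV4-11R arrays, which was 0.13 for PGD, 0.21 for TALDO1 and 0.25 for TKT.

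**Figure D2:**
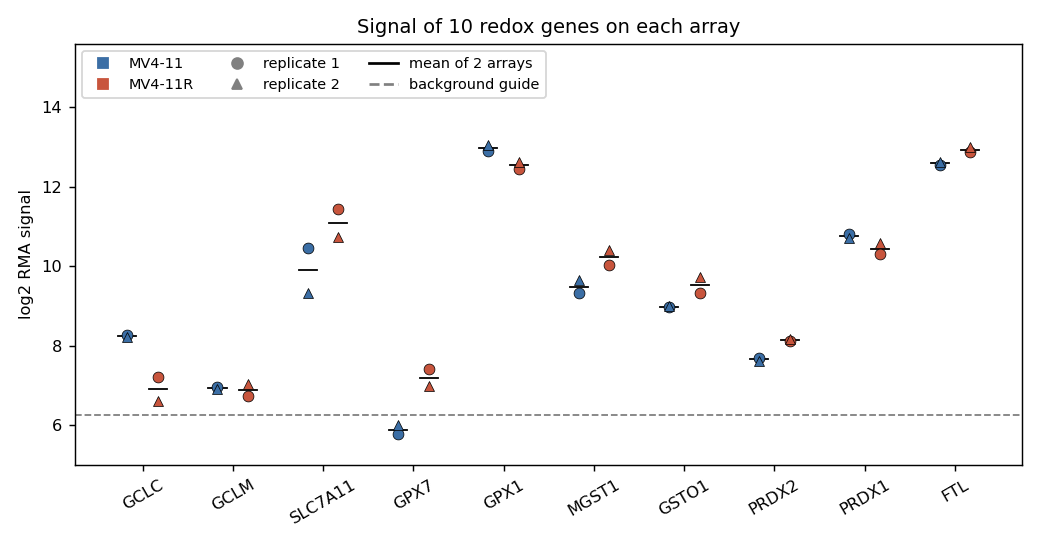
Log2 RMA signal (y axis) of 10 genes on each of the 4 arrays; circles are replicate 1, triangles replicate 2, black bars the mean of 2 arrays, and the dashed line is the background guide of 6.26. The GCLC arrays of MV4-11R lie below those of MV4-11, GPX7 lies under the guide in MV4-11 (5.78 and 5.99) and above it in MV4-11R, and the arrays of each line are far apart for SLC7A11.

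Among the 4 measured genes of the glutathione peroxidase family, GPX7 stood out. GPX7, an endoplasmic reticulum peroxidase with a cysteine in place of selenocysteine, read 5.78 and 5.99 in MV4-11 and 7.41 and 6.97 in MV4-11R. The parental arrays were under the background guide and the resistant ones above it. Its means were 5.88 ± 0.15 (SD, n = 2) and 7.19 ± 0.31 (SD, n = 2), a 2.47-fold rise (log2 difference 1.31, SE 0.17, adjusted p = 0.00783), and because MV4-11 was near background the fold is not exact. GPX7 passed under all 12 alternative settings, with differences from 1.08 to 1.53. Its neighbours on chromosome 1 had a median difference of 0.01.

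GPX1, the abundant cytosolic selenoenzyme that removes hydrogen peroxide, pointed the other way. Its brighter probe set read 12.91 and 13.06 in MV4-11 and 12.44 and 12.64 in MV4-11R. The arrays did not overlap, and the difference of -0.45 (SE 0.13, 95% interval -0.75 to -0.14) did not pass (adjusted p = 0.0672). It passed with median centring (-0.48, adjusted p = 0.0427), with quantile normalization (-0.47, adjusted p = 0.0462) and with a trended, robust variance prior (adjusted p = 0.0282). It did not pass with any 1 array left out (adjusted p from 0.0703 to 0.249) or with the mean of its probe sets (-0.34, adjusted p = 0.128). The other GPX1 probe set had a difference of -0.23. GPX4, the selenoenzyme that reduces lipid peroxides in membranes and restrains ferroptosis, read 12.16 and 12.20 in MV4-11 and 12.39 and 12.36 in MV4-11R (difference 0.20, adjusted p = 0.287), with a neighbour shift of 0.19 on chromosome 19. GPX3, the secreted form, lay near the background guide at 6.24 to 6.59 on the 4 arrays and its lines overlapped.

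Of the 5 measured peroxiredoxins, the thiol peroxidases recycled by thioredoxin or glutathione, 1 rose and 4 did not pass. That is 20% passing, beside 15.1% of all genes. PRDX2 read 7.69 and 7.62 in MV4-11 and 8.12 and 8.17 in MV4-11R, close pairs that did not overlap. Its 1.40-fold rise (log2 difference 0.49, SE 0.11, adjusted p = 0.0326) did not pass when any 1 of the 4 arrays was left out. The difference stayed between 0.45 and 0.53 in those settings, in which fewer of all genes passed as well. On chromosome 19 the neighbours of PRDX2 shifted by a median of 0.37, and with it taken off the difference was 0.12 (adjusted p = 0.503). With all probe sets tested together PRDX2 did not pass either (adjusted p = 0.0823). PRDX1, a cytosolic member and NRF2 target, read 10.81 and 10.72 in MV4-11 and 10.30 and 10.58 in MV4-11R (difference -0.33, adjusted p = 0.175). The mitochondrial PRDX3 had a difference of -0.15, the endoplasmic reticulum form PRDX4 of 0.16 and PRDX6, which reduces phospholipid hydroperoxides, of 0.16. For each of the 5 genes the arrays of the lines did not overlap, with 3 higher and 2 lower in MV4-11R, where 55.6% of all genes did not overlap.

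The thioredoxin system that serves them had small differences. TXN had a difference of 0.06 (95% interval -0.22 to 0.33), the mitochondrial TXN2 of 0.08 (95% interval -0.18 to 0.34) and the reductase TXNRD1 of -0.15 (95% interval -0.43 to 0.12). TXNRD1, another common NRF2 target, read 9.36 and 9.29 in MV4-11 and 9.24 and 9.10 in MV4-11R, with the resistant arrays lower. Catalase, CAT, which degrades hydrogen peroxide in peroxisomes, read 11.98 and 11.84 in MV4-11 and 11.87 and 11.85 in MV4-11R. The superoxide dismutase SOD1 read 9.92 and 10.09 in MV4-11 and 10.10 and 10.22 in MV4-11R (difference 0.15, adjusted p = 0.494).

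Of the 6 glutathione transferases, 1 rose and 5 did not pass (16.7% passing, beside 15.1% of all genes). MGST1, a membrane transferase that also reduces lipid peroxides, read 9.33 and 9.65 in MV4-11 and 10.03 and 10.42 in MV4-11R. All resistant values were above the parental ones, and the difference was 0.73 (SE 0.18, adjusted p = 0.0445), a 1.66-fold rise. MGST1 no longer passed without parental replicate 1 (0.57, adjusted p = 0.154) and without resistant replicate 2 (0.54, adjusted p = 0.118). It was also lost when all probe sets were tested together (adjusted p = 0.116). GSTO1, an omega class transferase, read 8.98 and 8.99 in MV4-11 and 9.32 and 9.72 in MV4-11R. The difference of 0.54 did not pass (adjusted p = 0.0703), and it was 0.74 and passed without resistant replicate 1 (adjusted p = 0.0309). The other 4 had negative differences, of -0.13 for GSTP1, -0.23 for GSTK1 (peroxisomal and mitochondrial), -0.17 for MGST2 and -0.19 for MGST3, with adjusted p from 0.231 to 0.569. Of these, the arrays overlapped for MGST3 only. Over the 6 transferases the arrays of the lines did not overlap for 5 (83.3%), beside 55.6% of all genes.

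FTL, the ferritin light chain that stores iron and is an NRF2 target, read 12.54 and 12.64 in MV4-11 and 12.87 and 13.00 in MV4-11R. The difference of 0.34 (SE 0.11, adjusted p = 0.104) passed only with the trended, robust prior (adjusted p = 0.0373) among the 12 alternatives. Its neighbours, also on chromosome 19, shifted by a median of 0.25, and without that shift it was 0.09.

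**Figure D3:**
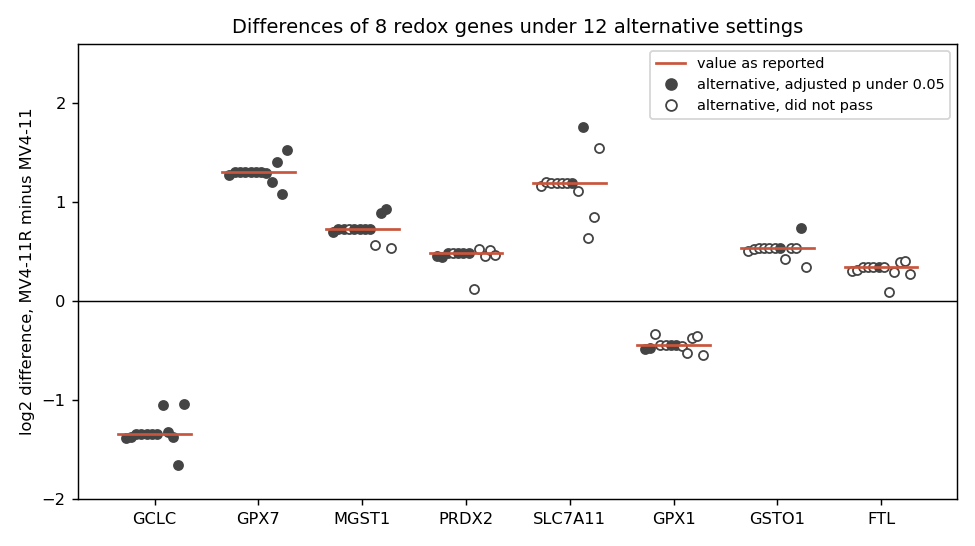
Log2 difference (y axis) of 8 genes as reported (red bar) and under 12 alternative settings (points, in the order normalization, probe set rule, filter, variance prior, replicate numbers as a block, regional shift removed, and each of the 4 arrays left out); filled points passed the test. All points of GCLC and GPX7 are filled, 6 of 12 are for PRDX2 and 9 of 12 for MGST1.

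Other genes of the same pathways were taken from a list of 119 genes in 8 groups, chosen with earlier results of these data known. Of the list, 106 were measured, with a median difference of -0.03 and a median signal of 8.53 against 7.41 over all genes. Of these 106, 16 rose, 15 fell and 75 did not pass. That is 29.2% passing, beside 15.1% of all genes and 22.2% of all genes with a signal above the median. The count fell to 19 without parental replicate 2 and 17 without resistant replicate 1. It was 15 when all probe sets of the array were tested together, which ended the calls of PGAM5, GSK3B, NNT, IDH1, GGT7, MSRA, MSRB2, SESN3 and GSTM1 among the genes named here. Among the 12 measured NRF2 regulators PGAM5, a mitochondrial phosphatase that binds KEAP1, rose by 0.51, and GSK3B, a kinase that marks NRF2 for degradation, had a log2 difference of -0.60 and fell. Both calls were lost with the neighbours' shift removed (adjusted p = 0.0965 for PGAM5 and 0.306 for GSK3B). Both were also lost without parental replicate 1, parental replicate 2 or resistant replicate 1, and that of PGAM5 without resistant replicate 2 too.

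In the group of cystine and glutathione turnover 2 of 13 genes rose and 3 fell (38.5% passing, beside 15.1% of all genes). CHAC1, a cytosolic glutathione-degrading cyclotransferase, read 8.65 and 8.43 in MV4-11 and 10.51 and 9.82 in MV4-11R, a difference of 1.62 (SE 0.23, adjusted p = 0.00962). Its relative CHAC2 read 5.33 on both MV4-11 arrays, under the guide, and 7.14 and 7.41 in MV4-11R, a difference of 1.95 (SE 0.13, adjusted p = 0.00146). Both passed under all 12 alternatives, though CHAC2 was above the filter at the 25th percentile of level only through its MV4-11R arrays. The membrane peptidase ANPEP (CD13), which acts after gamma-glutamyl transfer, read 7.44 and 7.31 in MV4-11 and 6.44 and 5.95 in MV4-11R, on either side of the guide and with a mean under it, and fell (difference -1.18, adjusted p = 0.0110), so its fold is not exact. GGT7, a member of the gamma-glutamyltransferase family, fell 2.10-fold, a call lost without resistant replicate 1 (adjusted p = 0.0506).

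In the NADPH group 2 of 11 rose and 2 fell (36.4% passing, beside 15.1% of all genes). The cytosolic malic enzyme ME1 read 5.04 and 4.86 in MV4-11, under the guide, and 6.82 and 6.63 in MV4-11R (difference 1.77, adjusted p = 0.00159). Its mitochondrial relative ME2 rose by 0.93, but its neighbours on chromosome 18 shifted by a median of 0.68 and ME2 no longer passed with that removed (0.25, adjusted p = 0.236). The isocitrate dehydrogenase IDH1 (-0.50) and the mitochondrial transhydrogenase NNT (-0.65) fell. Both calls were lost without parental replicate 1, parental replicate 2 or resistant replicate 1, with adjusted p from 0.0522 to 0.137, and that of IDH1 with the regional shift removed (0.0524).

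Conjugation and detoxification genes split into rises and falls, with 5 of 25 rising and 6 falling (44% passing, beside 15.1% of all genes). The aldo-keto reductases AKR1C2 (6.44 and 6.81 in MV4-11, 9.67 and 9.88 in MV4-11R) and AKR1C1 (5.60 and 5.34 in MV4-11, under the guide, and 7.97 and 8.36 in MV4-11R) rose, and the fold of AKR1C1 is not exact. These genes are close copies whose probe sets can share signal, and the other AKR1C1 probe set had a difference of 0.21 against 2.70. The AKR1C1 probe set that was kept was the brighter of the 2 only through MV4-11R. The alpha class transferase GSTA4 read 6.65 and 6.61 in MV4-11 and 5.03 and 4.83, under the guide, in MV4-11R. GLO1, which clears methylglyoxal with glutathione, read 11.95 and 11.93 in MV4-11 and 10.57 and 10.68 in MV4-11R, a 2.49-fold fall. GSTA4 and GLO1 lie on chromosome 6, as GCLC does, where their neighbours had median differences of -0.34 and -0.27. With those removed GSTA4 and GLO1 still passed. Chosen after their values were seen, 3 mu class transferases of chromosome 1 fell (log2 differences of -0.49 for GSTM1, -1.16 for GSTM2 and -0.82 for GSTM4), although these genes too are near copies, and GSTM1 no longer passed when any 1 of the 4 arrays was left out. ESD, which acts on a glutathione conjugate of formaldehyde and was also chosen after its value was seen, fell with a difference of -1.15 on chromosome 13, where neighbours had a median of -0.997. With that removed the ESD difference was -0.15 (adjusted p = 0.531).

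Among 23 other peroxidases and thiol reductases 5 rose and 2 fell (30.4% passing, beside 15.1% of all genes). The mitochondrial superoxide dismutase SOD2 read 7.27 and 7.52 in MV4-11 and 8.53 and 8.59 in MV4-11R, a difference of 1.16 (SE 0.13, adjusted p = 0.00439). SOD2 passed under all 12 alternatives, whereas SOD1 passed under none. The methionine sulfoxide reductase MSRA rose by 0.71, while MSRB2, which repairs the other stereoisomer, had a difference of -0.77 and fell. The MSRA call was lost without parental replicate 2 or resistant replicate 1, and that of MSRB2 without parental replicate 2 (adjusted p = 0.0557) or once the regional shift was taken off (0.0667). SESN3, a stress-induced sestrin, read 7.07 and 7.94 in MV4-11 and 5.41 and 6.35 in MV4-11R, with a mean under the guide, and fell (-1.63), a call lost without parental replicate 2 or resistant replicate 1. CYBB, the catalytic subunit of the phagocyte NADPH oxidase that makes superoxide, read 9.12 and 8.61 in MV4-11 and 10.88 and 10.31 in MV4-11R, a difference of 1.73 (SE 0.24, adjusted p = 0.00926), the 1 gene of 7 superoxide sources that passed. Of 6 selenoprotein synthesis genes only the elongation factor EEFSEC changed, falling with a difference of -0.69. That call was lost without parental replicate 1 (adjusted p = 0.0555) and with the regional shift removed (0.0640). Of 9 iron and haem genes 0 passed at an adjusted p under 0.05 by limma, and 0 had an unadjusted p under 0.05.

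**Figure D4:**
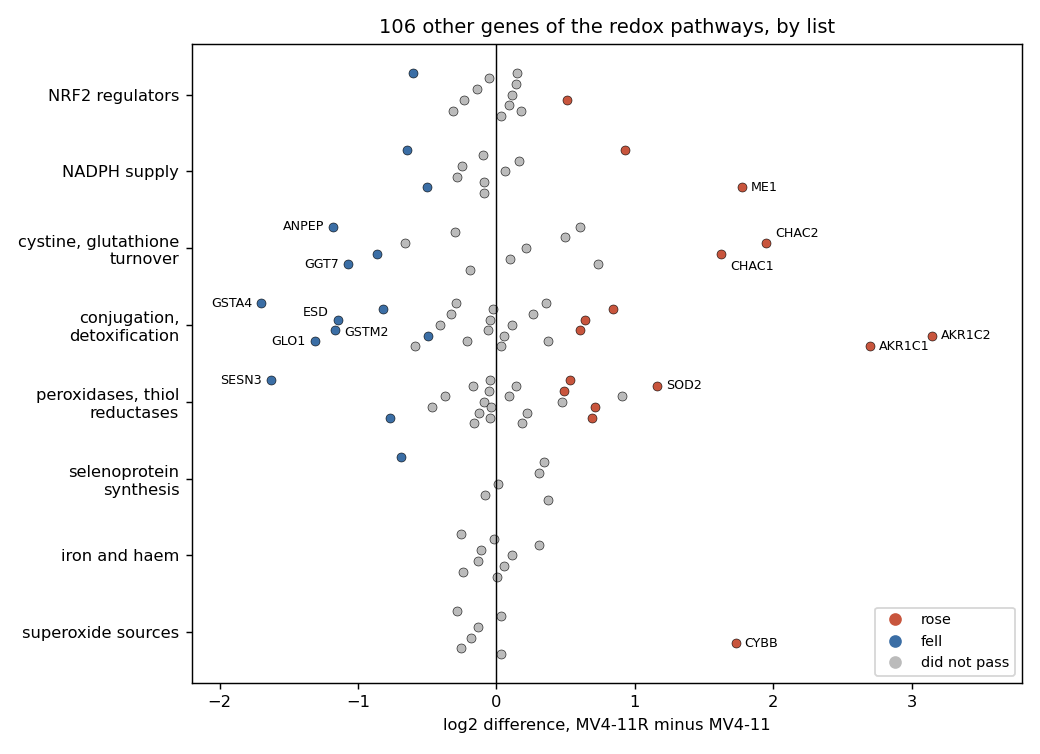
Log2 difference (MV4-11R minus MV4-11, x axis) of 106 other genes of these pathways in 8 lists (rows); each point is a gene, coloured by whether it rose, fell or did not pass, the vertical offset within a row has no meaning, and passing genes with a difference beyond 1 are named. AKR1C2 and AKR1C1 lie farthest right, GSTA4 and SESN3 farthest left, and no iron and haem gene passed.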

How the data were processed

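RNA from 2 MV4-11 and 2 MV4-11R samples was measured on Affymetrix arrays. The deposited values are log2 signals per probe set, which the authors made with RMA, with Affymetrix Expression Console as the tool that the submitters' processing notes name; versions and genome build are not given in the sources used here. The log2 scale was read from the range of the values. RMA compresses differences of dim genes. The number of arrays limits the precision.

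Of 33297 probe sets, 19460 were paired with 1 gene by the platform annotation, 1754 with several and 12083 were not listed. Symbols were updated by Entrez ID in a RefSeq table (GRCh38.p14; 29 IDs had no match), which also gave gene order. The brightest probe set per gene was kept, leaving 18417 genes with no filter. Each was tested with limma 3.58.1 in R 4.3.3 (lmFit, eBayes, 2-sided, Benjamini-Hochberg; 2 residual degrees of freedom, 6.06 with the prior); SE is moderated. The test was tried on simulated data. The labels do not say that replicates were separate cultures, so p-values reflect the spread among these 4 arrays only, and that spread may be technical. A gene's neighbour shift is the median difference of up to 30 genes around it with a mean above the median of all genes. Leaving out an array leaves 1 in its line, assumed to vary like the other line.

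The members and lists were chosen with earlier results of these data known. Beside cell type markers from fixed lists, the genes named are all members, EZH2, and, from each list of other pathway genes, at most the 2 largest rises and the 2 largest falls that passed; the text marks any gene outside this rule. Alternatives were median centring, quantile normalization, the mean of a gene's probe sets, testing every probe set, a filter at the 25th percentile of level, a trended robust prior, the replicate number as a block, removal of the neighbour shift, and leaving out each array.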

Additional observations from a re-analysis of the deposited data

How the results depend on the processing

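GCLC, GPX7, CHAC1, CHAC2, GLO1, SOD2, CYBB and AKR1C2 passed limma's test in the same direction under each of the 12 alternatives. AKR1C1 did too, but its probe set was the brighter of 2 only through MV4-11R. In MV4-11 it read 5.60 and 5.34, and the other probe set 6.52 on both arrays. No alternative used that other probe set alone, which differed by 0.21 (adjusted p = 0.316 by limma). CHAC2, at 5.33 in MV4-11, was above the 25th percentile of level (5.84) only through MV4-11R. The number of members that passed (4) was 2 when every probe set was tested, and 3 to 4 with an array left out. For the other pathway genes (31) it was 15 when every probe set was tested and 17 to 29 with an array left out, and for all genes (2772) it was 1164 and 1588 to 2479, the lowest without parental replicate 1, with 1638 without parental replicate 2 and 1699 without resistant replicate 1. Arrays with the same replicate number deviated together from their line means (r = 0.262 over all genes), but the labels describe no pairing; with the replicate number as a block 7 members passed (GSTO1, GPX1 and SLC7A11 in addition), 38 other pathway genes and 3642 genes in all, and SLC3A2 passed too (adjusted p = 0.00537 for SLC7A11 and 0.0232 for SLC3A2).

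Some members that did not pass, and EZH2, changed sign under an alternative. With the neighbour shift removed NFE2L2 was -0.023, KEAP1 -0.17, HMOX1 0.045, SRXN1 -0.11 and TKT -0.054, and with median centring GSR was -0.012. With an array left out, the differences ran through 0 for HMOX1 (-0.33 to 0.30), EZH2 (-0.45 to 0.16), GCLM (-0.20 to 0.099), GSR (-0.090 to 0.14), PGD (-0.11 to 0.066), TALDO1 (-0.097 to 0.20), TKT (-0.13 to 0.22), OSGIN1 (-0.16 to 0.038), GPX3 (-0.29 to 0.059), MGST3 (-0.41 to 0.031), TXN (-0.0074 to 0.12) and CAT (-0.12 to 0.025). The cause was not tested. Signal limits GPX7, GPX3 and 8 other pathway genes that passed, among them ME1, CHAC2, GSTA4, AKR1C1, SESN3 and ANPEP, which read near or under the background guide in a line.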
